A study of Homo sapiens with 6 samples.

Results

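The 36 genes described here encode the folding, quality control and entry machinery of the endoplasmic reticulum (ER) and the sensors of its unfolded protein response. They were chosen by name, by matching Ensembl gene IDs to symbols, and all 36 were found among the 64252 rows of the count table. Transcripts were counted by bulk RNA sequencing in 6 libraries of SK-N-BE(2), a human neuroblastoma cell line with amplified MYCN. In the labels, 2 libraries carry BCAT1 hairpin 1 (shBCAT1#1), 2 carry BCAT1 hairpin 2 (shBCAT1#2) and 2 carry a control hairpin (shControl). BCAT1 is the cytosolic aminotransferase of branched-chain amino acids. The hairpins were transfected into the same parental line. The labels state neither the time after transfection nor whether replicates were separate cultures. Each p-value therefore reflects the spread among these libraries alone, which may be technical.

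Proteins bound for secretion or for membranes enter the ER through the SEC61 channel, fold with the help of chaperones such as BiP (encoded by HSPA5) and calnexin, and gain disulfide bonds from the protein disulfide isomerases. Proteins that fail to fold are pulled back into the cytosol and destroyed by ER-associated degradation, which runs through the ubiquitin ligase HRD1 (SYVN1) and its partner SEL1L. When unfolded protein builds up, the sensors IRE1 (ERN1), ATF6 and PERK (EIF2AK3) raise transcription of chaperone and degradation genes and slow translation. IRE1 acts by splicing XBP1 mRNA, and a count per gene does not separate the spliced form from the unspliced one.

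Total counts ran from 32333416 to 39321388 per library, and counts of the 36 genes from 107 to 61625. Sampling error was small for most of them and largest for ERO1B and ERN1, the least counted. Levels are in CPM, each count divided by its library's TMM-adjusted size, and fold changes are from edgeR's quasi-likelihood test with adjustment over all 18734 genes tested. BCAT1 mRNA, the target, stood at 55.8 and 55.3 CPM with hairpin 1 and at 116 and 111 CPM with hairpin 2, against 459 and 475 CPM in control libraries. All 8 neuroblastoma markers given here (PHOX2A, HAND2, GATA3, ISL1, TH, DBH, CHGA and MYCN) were detected in each group. Their summed level was 3020 to 3100 CPM with hairpin 1 and 2730 to 2840 CPM with hairpin 2. In control libraries it was 3700 to 3710 CPM, of which MYCN averaged 2260 CPM. Over both hairpins 4 markers were lower and 1 higher, where 26.4% of all tested genes were lower and 23.6% higher. After the correction for GC content and length given further on, HAND2 did not pass (−0.01, adjusted p = 0.72). MYCN (−0.16), PHOX2A (−0.36) and CHGA (−0.74) were still lower, and GATA3 (0.37) and TH (0.25, adjusted p = 0.0091) were higher. Before it, ISL1, TH and DBH did not pass over both hairpins, being higher with hairpin 1 and lower with hairpin 2. Their log2 fold changes were 0.17 and −0.2 for ISL1, 0.42 and −0.61 for TH, and 1.02 and −1.31 for DBH. Of 6 fibroblast genes 6 were lower over both hairpins (COL1A2 did not pass with hairpin 1 alone, nor COL1A1, LUM and PDGFRB with hairpin 2 alone), with sums of 402 to 414 CPM with hairpin 1, of 565 CPM with hairpin 2 and of 623 to 646 CPM in control libraries, and COL1A2 was under 1 CPM throughout. Epithelial markers summed to 11.9 to 13.3 CPM with hairpin 1 and 19.7 to 20.1 CPM with hairpin 2, against 9.6 to 11.6 CPM in control libraries, with CDH1 at 0 in the hairpin 1 and control libraries. The 3 epithelial markers that were tested, of 4, were higher over both hairpins, and with hairpin 1 alone KRT8 and KRT18 did not pass. Leukocyte markers summed to at most 2.13 CPM in a library, with CD3E at 0 throughout. The part of these shifts in the results was not tested.

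Many targets of the unfolded protein response carry an ER stress element (ERSE) in their promoters, bound by ATF6 and the spliced form of XBP1. Windows from 250 bases before to 50 after each start were read from RefSeq (GRCh38.p14) for 33 of the 36 genes. They were searched on both strands for ERSE (CCAAT and CCACG with 9 bases between), ERSE-II (ATTGG and CCACG with 1 base between) and UPRE (TGACGTGG). ERSE was found in 0.0769% of all 35116 promoter windows and in those of 8 of the 33 genes: HSPA5, HSP90B1, CALR, CANX, CRELD2, PDIA6, ERO1B and XBP1. ERSE-II was found in 0.0541% of all windows and in those of HERPUD1, HYOU1 and SDF2L1, and UPRE in 0.729% and in those of DNAJC10, HYOU1 and SSR3, where the UPRE of HYOU1 overlaps an ERSE-II. The windows below are shown because these genes carry the element and yet moved in different ways, as the values that follow show. Each is written 5′ to 3′ on the strand of its gene, and the capitals mark the element.
HSPA5 (chr9:125241371-125241429, minus strand): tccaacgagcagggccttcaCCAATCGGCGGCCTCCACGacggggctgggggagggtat
PDIA6 (chr2:10812833-10812891, minus strand): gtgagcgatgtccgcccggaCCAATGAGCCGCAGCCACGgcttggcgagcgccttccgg
CRELD2 (chr22:49918534-49918592, plus strand, reverse complement of ERSE): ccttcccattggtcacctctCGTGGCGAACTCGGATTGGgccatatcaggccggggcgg
CANX (chr5:179698758-179698816, plus strand): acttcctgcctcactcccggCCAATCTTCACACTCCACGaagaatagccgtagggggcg
XBP1 (chr22:28800583-28800641, minus strand): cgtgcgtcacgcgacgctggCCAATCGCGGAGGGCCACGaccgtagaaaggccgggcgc
HERPUD1 (chr16:56932005-56932055, plus strand, ERSE-II): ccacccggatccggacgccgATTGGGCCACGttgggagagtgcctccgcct
SDF2L1 (chr22:21642094-21642144, plus strand, reverse complement of ERSE-II): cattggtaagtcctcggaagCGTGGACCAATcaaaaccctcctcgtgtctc

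The mean of both BCAT1 hairpins was first set against the control hairpin. Of the chaperones 9 of 10 fell, all but DNAJB9, and the disulfide isomerases PDIA3, PDIA4, PDIA6 and P4HB fell. The sensor ERN1, the transcription factor CREB3L2 and the mannosidase-like EDEM1 and EDEM3 rose. XBP1 and ATF6 did not pass, and EDEM2 and DERL2 fell. After correction for GC content and length neither EDEM3 nor EDEM2 passed. In all, 21 of the 36 genes fell and 8 rose, where 26.4% of all tested genes fell and 23.6% rose (50% in either direction). The median log2 fold change was −0.18 over the 36 genes and −0.01 over all genes tested. The 36 genes together took 0.987% of counts in each hairpin 1 library and 1.04% and 1.05% in the hairpin 2 libraries, against 1.2% and 1.21% in control libraries. For 19 genes all 4 knockdown libraries lay below both controls, and for 5 they lay above both, where 23.6% and 22% of all tested genes did so (45.6% on either side). Against a fold of 1.5, 7 of the 36 passed (SDF2L1, MANF, CRELD2, PDIA4 and SSR2 lower, ERN1 and CREB3L2 higher), where 5.55% of all tested genes passed (2.71% lower and 2.83% higher).

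**Figure D1:**
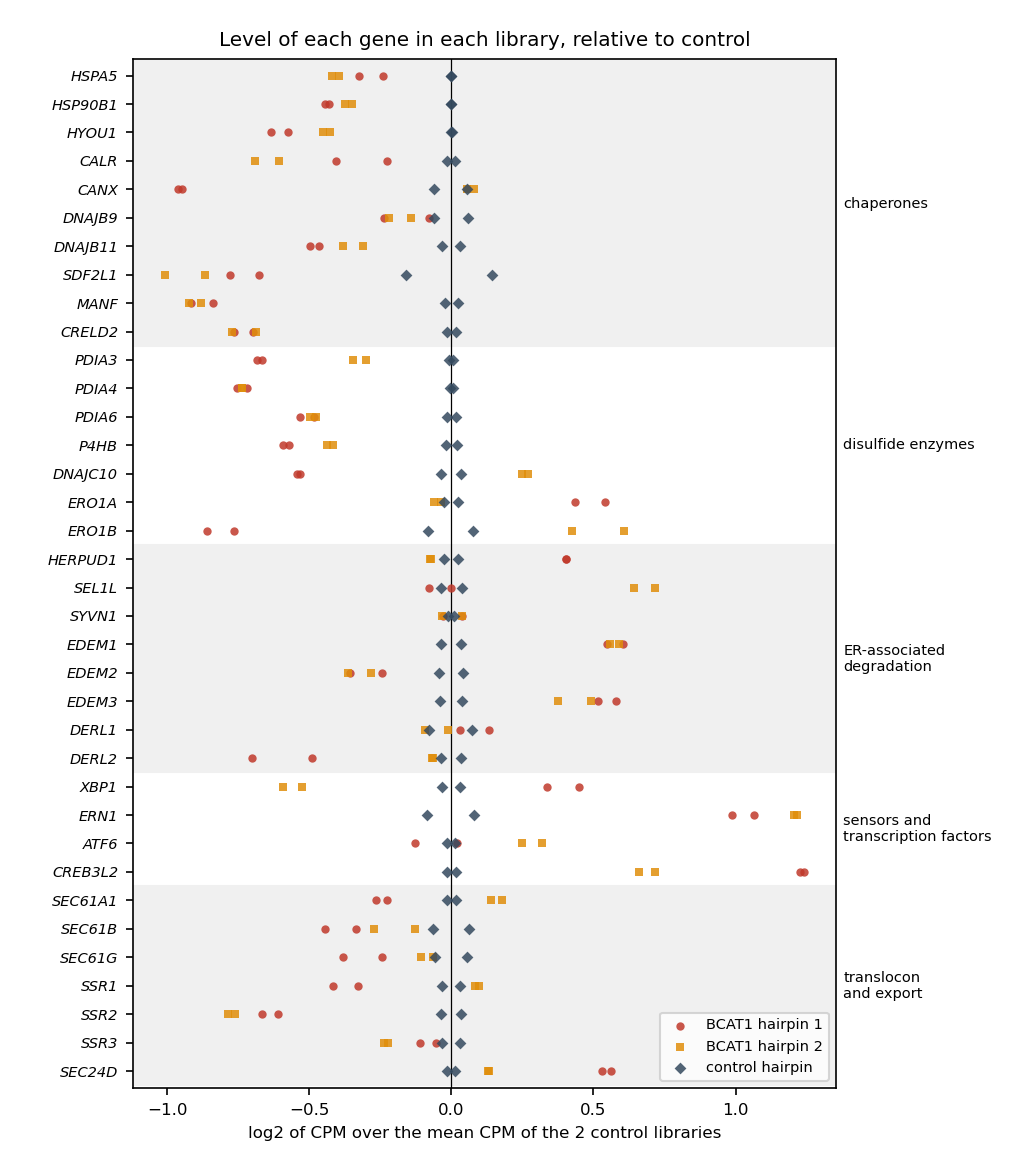
Level of each of the 36 genes in each library, as log2 of its CPM over the mean of the 2 control libraries (x axis), by gene and role (y axis). Circles are hairpin 1 libraries, squares hairpin 2 libraries and diamonds control libraries. Chaperones and disulfide isomerases lie mostly left of the controls, while ERN1, CREB3L2, EDEM1 and EDEM3 lie to the right with both hairpins.

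Among the 10 chaperones and cofactors, 9 fell over both hairpins and 0 rose, with a median log2 fold change of −0.46. HSPA5, the ER Hsp70 that also holds the stress sensors inactive, stood at 1380 and 1300 CPM with hairpin 1 and 1240 and 1220 CPM with hairpin 2, against 1630 and 1630 CPM in control libraries. All 4 knockdown libraries lay below both controls, and HSPA5 fell 1.27-fold (log2 fold change −0.34, SE 0.036, adjusted p = 8.2e-05). MANF, a small ER protein that binds BiP and can be secreted, had 69.9 and 66.3 CPM with hairpin 1 and 67.9 and 66 CPM with hairpin 2, against 123 and 127 CPM in control libraries. It fell 1.86-fold (−0.89, SE 0.038, adjusted p = 1.7e-06), with −0.02 between hairpin 2 and hairpin 1 (SE 0.046, adjusted p = 0.7). HYOU1, a large Hsp70 relative that acts as a nucleotide exchange factor for BiP, had 409 and 426 CPM with hairpin 1 and 465 and 472 CPM with hairpin 2, against 634 and 636 CPM in control libraries (fall of 1.44-fold, adjusted p = 7.1e-06).

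The other chaperones and cofactors fell by 1.32-fold to 1.78-fold over both hairpins, all but DNAJB9. SDF2L1, which sits with the J-domain protein ERdj3 (DNAJB11), fell 1.78-fold, although its control libraries lay apart at 75.1 and 60.9 CPM. CRELD2, a secreted ER stress protein, averaged 36.2 ± 1.2 CPM in hairpin 1 libraries, 36.2 ± 1.5 CPM in hairpin 2 libraries and 60 ± 0.93 CPM in control libraries (SD, n = 2 each), and fell 1.66-fold. DNAJB11 fell 1.34-fold and HSP90B1, the ER Hsp90 also called GRP94, 1.32-fold. CALR, the soluble lectin chaperone calreticulin, fell 1.4-fold, further with hairpin 2 (1.57-fold) than with hairpin 1 (1.24-fold), a difference that passed (adjusted p = 0.0018). DNAJB9, the J-domain protein ERdj4 that returns IRE1 to its BiP-bound state, stood at 21.5 and 24 CPM with hairpin 1 and 23 and 21.8 CPM with hairpin 2, against 24.3 and 26.4 CPM in control libraries. Its 4 knockdown libraries lay below both controls, but DNAJB9 did not pass (−0.17, SE 0.075, adjusted p = 0.097).

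CANX, the membrane lectin chaperone calnexin, was the exception among the abundant chaperones before correction for GC content and length. It stood at 415 and 419 CPM with hairpin 1 and at 840 and 855 CPM with hairpin 2, against 776 and 841 CPM in control libraries. Both hairpin 1 libraries were far below the controls and the hairpin 2 libraries overlapped them. CANX fell 1.94-fold with hairpin 1 (−0.96, SE 0.047, adjusted p = 1.6e-06). With hairpin 2 its value was 0.07 (SE 0.046, adjusted p = 0.26), and hairpin 2 exceeded hairpin 1 by 1.02 on the log2 scale (SE 0.047, adjusted p = 1e-06). After the correction CANX fell with hairpin 1 (−1.18, adjusted p = 8.9e-09) and also with hairpin 2 (−0.26, adjusted p = 0.00026). Calnexin and calreticulin bind the same sugar chains on folding proteins. CANX was lower with hairpin 1 than with hairpin 2, and CALR lower with hairpin 2 than with hairpin 1.

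Before correction for GC content and length, disulfide enzymes divided between the isomerases and the oxidases that recharge them. After it, 7 of 7 fell over both hairpins. PDIA4, an isomerase also called ERp72, had 490 and 502 CPM with hairpin 1 and 497 and 497 CPM with hairpin 2, against 824 and 830 CPM in control libraries. It fell 1.67-fold (−0.74, SE 0.031, adjusted p = 1.7e-06) with no overlap, and by the same fold with each hairpin. P4HB, the classical isomerase PDI, had 720 and 731 CPM with hairpin 1 and 802 and 814 CPM with hairpin 2, against 1100 and 1070 CPM in control libraries. P4HB fell 1.41-fold (−0.5, SE 0.032, adjusted p = 7.8e-06), as did PDIA3, the partner of calnexin and calreticulin (−0.5, SE 0.032, adjusted p = 7.8e-06), and PDIA6 (−0.49, SE 0.033, adjusted p = 9.2e-06). PDIA3 was lower with hairpin 1 (413 and 418 CPM) than with hairpin 2 (538 and 521 CPM), against 666 and 659 CPM in control libraries.

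The oxidases and the reductase of this class differed between hairpins, as did the isomerases PDIA3 (0.35) and P4HB (0.16) by less. ERO1A, the oxidase that hypoxia also induces, had 173 and 161 CPM with hairpin 1 and 116 and 114 CPM with hairpin 2, against 121 and 117 CPM in control libraries. It rose 1.4-fold with hairpin 1 (adjusted p = 6.3e-05), and with hairpin 2 it did not pass (−0.06, SE 0.049, adjusted p = 0.38). After correction for GC content and length ERO1A stood at 0.19 with hairpin 1 (adjusted p = 0.0075) and fell with hairpin 2 (−0.47, adjusted p = 3.2e-05). Its paralog ERO1B stood at 3.42 ± 0.17 CPM in hairpin 1 libraries, 8.58 ± 0.76 CPM in hairpin 2 libraries and 5.99 ± 0.47 CPM in control libraries (SD, n = 2 each). ERO1B went the other way, with a fall of 1.75-fold with hairpin 1 and a rise of 1.43-fold with hairpin 2. After that correction the rise did not pass (0.13, adjusted p = 0.39). DNAJC10, the reductase ERdj5 that helps clear misfolded proteins, had 87.1 and 87.9 CPM with hairpin 1 and 153 and 151 CPM with hairpin 2, against 124 and 130 CPM in control libraries. DNAJC10 fell with hairpin 1 (−0.53, SE 0.042, adjusted p = 1.7e-05) and rose with hairpin 2 (0.26, SE 0.041, adjusted p = 0.00086). That rise became −0.48 after the correction for GC content and length given further on. For DNAJC10 the correction used a transcript of 20129 bases. No library of either hairpin lay within the control range. Its small fall over both hairpins (−0.14, adjusted p = 0.012) was lost without control replicate 2 (−0.1, adjusted p = 0.098) and without hairpin 2 replicate 2 (−0.13, adjusted p = 0.053). The rise of ERO1B with hairpin 2 was lost without control replicate 1 (0.44, adjusted p = 0.068) and without hairpin 2 replicate 1 (0.42, adjusted p = 0.088).

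**Figure D2:**
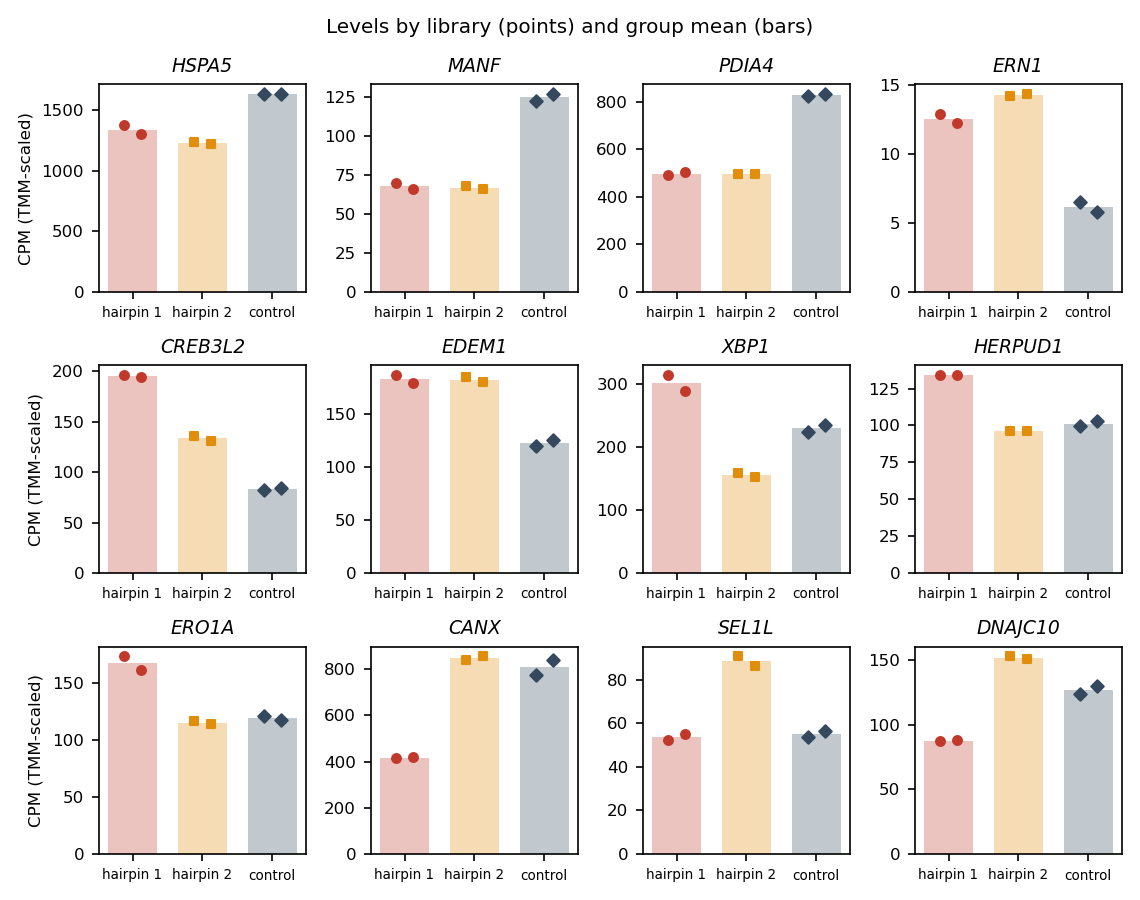
CPM (y axis) of 12 of the genes in each library (points) with group means (bars), by hairpin 1, hairpin 2 and control (x axis). HSPA5, MANF and PDIA4 are lower and ERN1, CREB3L2 and EDEM1 higher with both hairpins, whereas XBP1, HERPUD1, ERO1A, CANX, SEL1L and DNAJC10 differ between hairpins.

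Of 8 genes of ER-associated degradation, 4 rose, 2 fell and 2 did not pass over both hairpins, where 23.6% of all tested genes rose and 26.4% fell. After correction for GC content and length 3 rose and 3 fell. EDEM1, which hands mannose-trimmed glycoproteins to degradation, had 187 and 180 CPM with hairpin 1 and 185 and 181 CPM with hairpin 2, against 120 and 126 CPM in control libraries. EDEM1 rose 1.5-fold (0.58, SE 0.038, adjusted p = 8.7e-06), with the hairpins differing by −0.004 (SE 0.043, adjusted p = 0.95). EDEM3, of the same family, had 65.8 and 63 CPM with hairpin 1 and 62 and 57.1 CPM with hairpin 2, against 45.2 and 42.9 CPM in control libraries, a rise of 1.41-fold (adjusted p = 1e-04) that did not pass after correction for GC content and length (0.07). EDEM2, which starts the trimming, went down instead (adjusted p = 0.0045), a fall that did not pass after that correction (−0.12, adjusted p = 0.15). EDEM2 stood at 23.9 ± 1.3 CPM in hairpin 1 libraries, 23.5 ± 0.91 CPM in hairpin 2 libraries and 29.5 ± 1.2 CPM in control libraries (SD, n = 2 each). Its call with hairpin 1 alone was lost without control replicate 2 (−0.26, adjusted p = 0.057) and without hairpin 1 replicate 1 (−0.25, adjusted p = 0.066), and that with hairpin 2 alone without hairpin 2 replicate 1 (−0.29, adjusted p = 0.06).

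Members of the HRD1 complex differed from each other in how they varied by hairpin. SYVN1, the ligase itself, stood at 40.1 ± 1.4 CPM in hairpin 1 libraries, 40.1 ± 1.4 CPM in hairpin 2 libraries and 40 ± 0.4 CPM in control libraries (SD, n = 2 each; adjusted p = 0.97). SEL1L, its scaffold, had 52.4 and 55.3 CPM with hairpin 1 and 90.8 and 86.3 CPM with hairpin 2, against 53.9 and 56.7 CPM in control libraries. SEL1L rose 1.6-fold with hairpin 2 (0.68, SE 0.053, adjusted p = 2.2e-05), and its hairpin 1 libraries overlapped the controls (−0.04, SE 0.054, adjusted p = 0.6). After correction for GC content and length SEL1L stood at 0.17 with hairpin 2 (adjusted p = 0.013) and fell with hairpin 1 (−0.42, adjusted p = 5.3e-05). HERPUD1, an adaptor of the complex and a classical unfolded protein response target, showed the reverse, with 134 and 134 CPM with hairpin 1 and 96.2 and 96.3 CPM with hairpin 2, against 99.5 and 103 CPM in control libraries. It rose 1.32-fold with hairpin 1 (0.4, SE 0.04, adjusted p = 5.7e-05) and stood at −0.07 with hairpin 2 (SE 0.04, adjusted p = 0.16). Of the derlins, which form part of the exit channel, DERL2 fell 1.5-fold with hairpin 1 (adjusted p = 0.00061) and not detectably with hairpin 2 (−0.07, SE 0.086, adjusted p = 0.54), and DERL1 did not pass with either.

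Sensors and transcription factors were the role with the largest rises. ERN1, the kinase and nuclease IRE1, had 12.9 and 12.2 CPM with hairpin 1 and 14.2 and 14.3 CPM with hairpin 2, against 6.51 and 5.81 CPM in control libraries. It rose 2.17-fold (1.12, SE 0.094, adjusted p = 2.6e-05), and its length-scaled level in control cells was the lowest of the 36 genes. CREB3L2, an ER-anchored factor that drives secretory pathway genes once cleaved, had 196 and 194 CPM with hairpin 1 and 136 and 131 CPM with hairpin 2, against 81.9 and 83.8 CPM in control libraries. It rose 2.36-fold with hairpin 1 and 1.61-fold with hairpin 2, and the difference between hairpins passed (−0.55, SE 0.04, adjusted p = 1.3e-05).

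XBP1 mRNA, the substrate of IRE1, went in opposite directions. It stood at 313 and 289 CPM with hairpin 1 and at 159 and 152 CPM with hairpin 2, against 224 and 234 CPM in control libraries, with no overlap among the 3 groups. XBP1 rose 1.32-fold with hairpin 1 (0.4, SE 0.051, adjusted p = 0.00026) and fell 1.47-fold with hairpin 2 (−0.56, SE 0.051, adjusted p = 4.7e-05), so that its mean over both hairpins did not pass (−0.08, SE 0.044, adjusted p = 0.16). ATF6, the sensor cleaved in the Golgi, had 64.9 and 58.6 CPM with hairpin 1 and 76.1 and 79.9 CPM with hairpin 2, against 63.4 and 64.7 CPM in control libraries. It rose 1.22-fold with hairpin 2 (adjusted p = 0.0037; −0.18 after correction for GC content and length), while hairpin 1 libraries lay on either side of the controls (−0.05, SE 0.059, adjusted p = 0.51; −0.41, adjusted p = 0.00013, after that correction). Over both hairpins ATF6 did not pass (0.12, adjusted p = 0.09), though it did without hairpin 1 replicate 2 (0.16, adjusted p = 0.031).

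At the entry gate of the ER, 5 of 7 translocon and export genes fell over both hairpins and 1 rose, where 26.4% of all tested genes fell and 23.6% rose. Leaving out 1 library at a time, 2 to 5 of the 7 fell. SSR2, a subunit of the translocon-associated protein complex that assists the channel, had 224 and 233 CPM with hairpin 1 and 206 and 210 CPM with hairpin 2, against 347 and 364 CPM in control libraries. It fell 1.63-fold (−0.7, SE 0.036, adjusted p = 3.2e-06). Its partners moved less: SSR3 fell 1.11-fold over both hairpins, and SSR1 fell with hairpin 1 (−0.37, SE 0.045, adjusted p = 2e-04) and stood at 0.09 with hairpin 2 (SE 0.045, adjusted p = 0.12). SEC61A1, the channel-forming subunit, averaged 431 ± 7.4 CPM in hairpin 1 libraries, 571 ± 11 CPM in hairpin 2 libraries and 511 ± 7.8 CPM in control libraries (SD, n = 2 each), a fall of 1.18-fold and a rise of 1.12-fold. The small subunits SEC61B and SEC61G fell over both hairpins, by 1.22-fold (adjusted p = 0.0026) and 1.14-fold (adjusted p = 0.011).

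SEC24D, a cargo adaptor of the COPII coat that carries folded proteins out of the ER, was the member of this role that rose. It had 319 and 312 CPM with hairpin 1 and 236 and 237 CPM with hairpin 2, against 214 and 218 CPM in control libraries, with no overlap. SEC24D rose 1.46-fold with hairpin 1 (0.55, SE 0.038, adjusted p = 9e-06), and by 1.1-fold with hairpin 2 (0.13, SE 0.038, adjusted p = 0.019; −0.07 and not passed after that correction). That last call was lost without control replicate 1 (0.11, adjusted p = 0.091), hairpin 2 replicate 1 (0.13, adjusted p = 0.11) or hairpin 2 replicate 2 (0.13, adjusted p = 0.094). Over both hairpins the calls of SEC61G (−0.14, adjusted p = 0.1), SSR1 (−0.11, adjusted p = 0.11) and SSR3 (−0.13, adjusted p = 0.05) were lost without control replicate 2, and that of SSR1 also without hairpin 2 replicate 1 (−0.14, adjusted p = 0.054). With hairpin 2, the call of SEC61A1 was lost without hairpin 2 replicate 2 (0.14, adjusted p = 0.064), and that of SEC61B without control replicate 1 (−0.14, adjusted p = 0.17) or hairpin 2 replicate 1 (−0.13, adjusted p = 0.22).

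Each hairpin was also set against the same control libraries on its own, so the 2 comparisons share their controls. With hairpin 1, 22 of the 36 genes fell and 8 rose, where 24.9% and 24.2% of all tested genes did (49.1% in either direction). With hairpin 2, 17 fell and 10 rose, where 25.4% and 23.9% of all tested genes did (49.3% in either direction). The medians were −0.31 with hairpin 1 and −0.13 with hairpin 2, against −0.01 over all genes tested in each. Against a fold of 1.5, 6 of the 36 passed with hairpin 1 (4 lower, 2 higher), where 9.44% of all tested genes did (4.84% lower, 4.61% higher). With hairpin 2, 5 passed (4 lower, 1 higher), where 7.46% did (3.46% lower, 3.99% higher). Chaperones accounted for 9 falls with hairpin 1 and 8 with hairpin 2, and no chaperone rose with either.

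**Figure D3:**
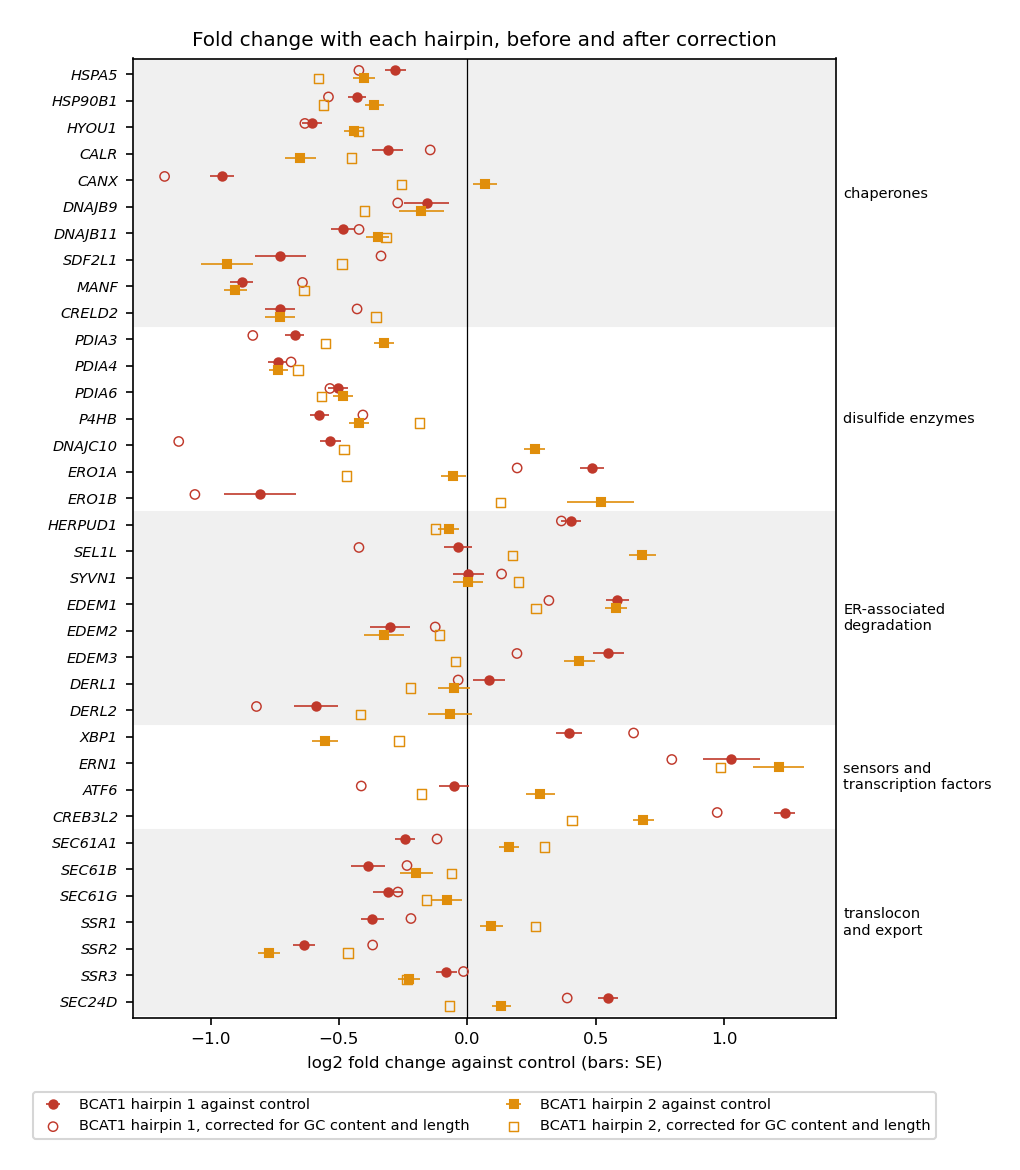
Log2 fold change against control (x axis) of each gene (y axis) with hairpin 1 (circles) and hairpin 2 (squares). Filled symbols are values as tested with their SE, and open symbols are values after correction for GC content and length. MANF, PDIA4, CRELD2 and EDEM1 have nearly the same value with each hairpin, while XBP1, CANX, DNAJC10, ERO1B and SEL1L lie far apart.

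The direct test of hairpin 2 against hairpin 1 passed for 23 of the 36 genes, 14 higher and 9 lower with hairpin 2, where 46.2% of all tested genes passed (22.9% higher, 23.3% lower). By p-value the differences were led by CANX (1.02), DNAJC10 (0.8) and SEL1L (0.72), higher with hairpin 2, and by XBP1 (−0.95), CREB3L2 (−0.55) and HERPUD1 (−0.48), lower with hairpin 2. ERO1B, the least counted of the 36 genes, differed by 1.33 (SE 0.14, adjusted p = 8.8e-05). A set of 4 genes passed in opposite directions against control, XBP1 upwards with hairpin 1 and DNAJC10, ERO1B and SEC61A1 upwards with hairpin 2. The share of all tested genes that did so was not counted. After correction for GC content and length XBP1 and SEC61A1 still did. DNAJC10 then fell with both hairpins (−1.12 and −0.48), and the rise of ERO1B did not pass (0.13, adjusted p = 0.39). ERO1A, HERPUD1, SEL1L and SSR1 passed in opposite directions only after that correction. Of the 23 differences, 5 passed against a fold of 1.5 (CANX, DNAJC10, ERO1B and SEL1L higher, XBP1 lower), where 9.47% of all tested genes did (5.11% higher, 4.36% lower). The smaller differences of HSPA5, HYOU1, DNAJB11, P4HB, SEC61B, SEC61G, SSR2 and SSR3 were lost without at least 1 library, where their sizes ran from −0.16 to 0.2.

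Length-scaled levels (TPM, from the GENCODE 29 transcript with the longest coding sequence) show how unequal the 36 genes are. In control cells CALR led at 1540 ± 8.7 TPM, ahead of HSP90B1 at 888 ± 2.6 TPM, HSPA5 at 758 ± 3.3 TPM and P4HB at 756 ± 20 TPM (SD, n = 2 each). HSPA5 and P4HB did not differ beyond their spread. Sensors were far lower, with ATF6 at 15.5 ± 0.15 TPM and ERN1 at 1.42 ± 0.12 TPM. Where a gene has several transcripts this scale depends on the length taken, as for DNAJC10, whose chosen transcript has 20129 bases.

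Fold changes of all genes followed the GC content and the length of the transcript. The 17459 genes compared share libraries and are not independent replicates. Across them the Spearman correlation with GC content was −0.36 over both hairpins, −0.25 with hairpin 1 and −0.38 with hairpin 2. With length it was 0.29, 0.23 and 0.27 in that order. After a correction for GC content and length in each library, 25 of the 36 genes fell over both hairpins and 8 rose, where 24.7% and 21.6% of all genes in that fit did (46.3% in either direction). With hairpin 1, 24 then fell and 8 rose, where 23.9% and 25.6% of all genes did (49.5% in either direction). With hairpin 2, 24 fell and 7 rose, where 24.4% and 21.8% did (46.1% in either direction). Between hairpins, 12 were higher and 10 lower with hairpin 2, where 24.8% and 27.1% were (51.9% in either direction). Chaperones then fell in 10 of 10 cases, DNAJB9 among them (−0.34, adjusted p = 0.0025), and disulfide enzymes in 7 of 7. The corrected values were −0.5 for HSPA5, −0.64 for MANF, −0.67 for PDIA4, −0.42 for SSR2, 0.89 for ERN1, 0.69 for CREB3L2 and 0.29 for EDEM1, each in the direction it had before and past the threshold. Other genes changed direction or call. SEL1L (−0.12, adjusted p = 0.035), ERO1A (−0.14, adjusted p = 0.021), ATF6 (−0.3, adjusted p = 0.00049) and DERL1 (−0.13, adjusted p = 0.037) were lower over both hairpins after correction, and XBP1 (0.19, adjusted p = 0.0073), SEC61A1 (0.09, adjusted p = 0.032) and SYVN1 (0.17, adjusted p = 0.022) were higher. SSR1 (0.02), EDEM2 (−0.12) and EDEM3 (0.07) no longer passed, and ERO1B did (−0.47, adjusted p = 0.0041). With hairpin 2 alone, DNAJC10 (−0.48), CANX (−0.26) and ATF6 (−0.18) turned to falls, and EDEM3 (−0.05), SEC24D (−0.07), EDEM2 (−0.11), ERO1B (0.13) and SEC61B (−0.06) no longer passed. Calls gained with hairpin 2 were falls of ERO1A (−0.47, adjusted p = 3.2e-05), DERL2 (−0.42, adjusted p = 0.001), DNAJB9 (−0.4), DERL1 (−0.22, adjusted p = 0.0055), SEC61G (−0.16) and HERPUD1 (−0.12), and rises of SSR1 (0.26, adjusted p = 0.00076) and SYVN1 (0.2). With hairpin 1, falls of SEL1L (−0.42), ATF6 (−0.41) and DNAJB9 (−0.27) were gained and that of EDEM2 (−0.13) was lost.

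Genes with the promoter elements shown above did not all move in 1 direction. Of the 11 genes with an ERSE or ERSE-II, 8 fell and 1 rose over both hairpins, 9 fell and 2 rose with hairpin 1, and 8 fell and 1 rose with hairpin 2. Of all tested genes 26.4% fell and 23.6% rose over both hairpins, 24.9% and 24.2% with hairpin 1, and 25.4% and 23.9% with hairpin 2, and of the 36 genes 21 fell and 8 rose, 22 and 8, and 17 and 10 in the same order. HSPA5, PDIA6, CRELD2 and SDF2L1 fell with each hairpin, whereas HERPUD1 rose with hairpin 1 and XBP1, with its ERSE 52 to 34 bases before the start, rose with hairpin 1 and fell with hairpin 2. No exact match was found for MANF, PDIA4 and SSR2, among the genes with the largest falls, nor for ERN1 and CREB3L2, with the largest rises. Windows were available for 33 of the 36 genes, and elements that differ by a letter or lie outside a window were not searched.

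Other genes of the secretory pathway, in 11 lists of 120 genes, placed the 36 in context. Of all tested genes 26.4% fell and 23.6% rose over both hairpins. Of the PERK branch, 6 of 10 genes rose over the mean of both hairpins and 1 fell (median 0.28). Not all of the 6 rose with each hairpin. TRIB3 rose with hairpin 1 (1.06, adjusted p = 1.1e-05) and fell with hairpin 2 (−0.41, adjusted p = 0.0027). That fall did not pass after correction for GC content and length (−0.01, adjusted p = 0.93). EIF2AK3, the sensor kinase PERK, had 37.5 and 37.2 CPM with hairpin 1 and 31.2 and 30.2 CPM with hairpin 2, against 14.2 and 15 CPM in control libraries, and rose 2.32-fold (adjusted p = 3.5e-06). PPP1R15B, a subunit that directs dephosphorylation of eIF2, rose 1.33-fold. ATF4, whose translation PERK favours, did not pass (0.04, SE 0.032, adjusted p = 0.34). DDIT3, the stress factor CHOP, averaged 24.8 ± 0.99 CPM in hairpin 1 libraries, 36.9 ± 2 CPM in hairpin 2 libraries and 28.8 ± 1.4 CPM in control libraries (SD, n = 2 each), a fall with hairpin 1 (adjusted p = 0.044) and a rise with hairpin 2 (adjusted p = 0.004). After correction for GC content and length the fall of DDIT3 was lost (−0.06, adjusted p = 0.52) and the rise was 0.5 (adjusted p = 0.00024). In the ATF6 family and its proteases 4 of 6 fell and 1 rose, with CREB3L1, a relative of CREB3L2, down 2.24-fold (adjusted p = 0.00014) and the protease gene MBTPS2 up 1.32-fold (0.05 with hairpin 1, adjusted p = 0.52, and 0.75 with hairpin 2).

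Folding enzymes outside the 36 genes mostly lay on the same side as the chaperones. The counts below compare with 26.4% of all tested genes lower and 23.6% higher. Of 14 other oxidoreductases 11 fell and 2 rose (median −0.34), among them ERP29 (−0.92) and GPX7, an ER peroxidase (−0.71). Of 12 oligosaccharyltransferase genes, which attach the sugar chains, 10 fell and 0 rose (median −0.39), as for DDOST (−0.42) and STT3A, which fell with hairpin 1 (−0.93) and stood at 0.04 with hairpin 2 (adjusted p = 0.36). Hsp70 and J-domain cofactors, a list that also held the disulfide isomerase TXNDC5 and the ATPase gene TOR1A, had 5 of 10 lower and 1 higher. TOR1A stood at −0.54 and DNAJB14 at 0.62. Among 7 prolyl isomerases 3 fell and 2 rose, with PPIB, the ER cyclophilin, at −0.8 and FKBP2 at −0.63. In the glycoprotein folding cycle 4 of 7 fell and 2 rose, with MOGS (−0.68) and MAN1B1 (−0.46), both sugar-trimming enzymes, lower.

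Degradation, entry and export lists were mixed. Of 18 tested genes of ER-associated degradation outside the 36, 8 fell and 7 rose. The smallest p-values were those of HM13 (−0.47) and the lectin gene OS9 (−0.39), and DERL3 did not pass the count filter. Of 17 translocon and signal recognition genes 7 fell and 3 rose, with SSR4, the remaining subunit of the translocon-associated complex, at −0.73 and SPCS2 of the signal peptidase at −0.56. Of 12 other COPII coat genes, 8 rose and 2 fell. SEC31A of the outer coat rose by 0.75, and PREB, which loads the coat GTPase, stood at −0.1 with hairpin 1 (adjusted p = 0.21) and fell by 1.48 with hairpin 2. Of 6 ER-phagy receptor genes 2 rose and 1 fell, with ATL3 at 0.47 and CCPG1 at 0.24, values that after correction for GC content and length were 0.05 and −0.01 and did not pass. MBTPS2 also did not pass after it (0.1), and ATF4 then did (0.25). The background share of all tested genes was 26.4% lower and 23.6% higher.

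**Figure D4:**
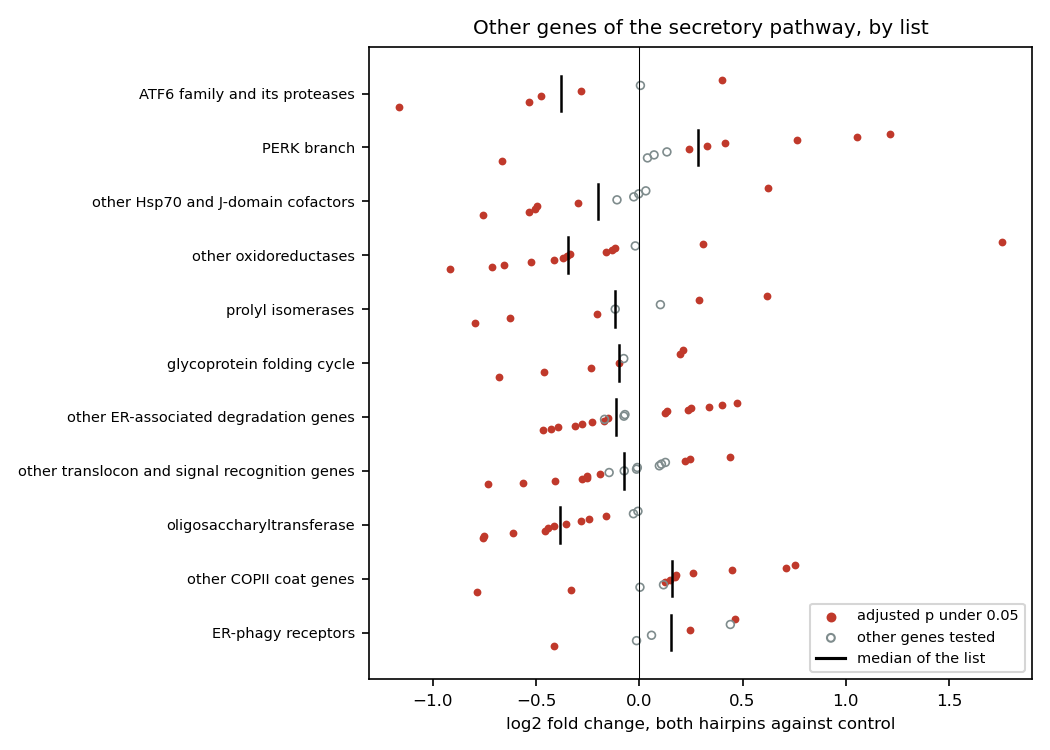
Log2 fold change over both hairpins against control (x axis) of the tested genes in 11 lists of the secretory pathway (y axis). Filled points passed the test at an adjusted p under 0.05, open points did not, and lines mark medians. Medians are −0.39 for the oligosaccharyltransferase, −0.34 for other oxidoreductases, 0.16 for other COPII coat genes and 0.28 for the PERK branch.

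Exons of 19 of the 36 genes overlap those of another annotated gene in GENCODE 29, and the sources used here do not say whether counting used strand. The reads of HSP90B1, HYOU1, CALR, CANX, DNAJB9, DNAJB11, CRELD2, PDIA3, PDIA6, P4HB, DNAJC10, ERO1A, SYVN1, EDEM1, DERL1, DERL2, SEC61A1, SSR1 and SSR2 are uncertain to that extent, as are those of BCAT1, EIF2AK3, DDIT3, MBTPS2, ERP29, PPIB, STT3A, DDOST, SEC31A, PREB, SSR4, HM13, OS9, ATL3 and CCPG1. HSPA5, MANF, PDIA4, SDF2L1, HERPUD1, SEL1L, XBP1, ERN1, ATF6 and CREB3L2 overlap none.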

How the data were processed

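RNA from 6 SK-N-BE(2) libraries was sequenced, and the deposited table holds whole-number read counts per Ensembl gene. Per the submitters' processing notes the tools included HISAT2 2.2.0 and StringTie, with build hg38; the annotation release and counting options are not stated in these sources. From the counts, edgeR 4.0.16 (R 4.3.3; TMM factors, filterByExpr with a minimum count of 10, quasi-likelihood test, 2-sided, 3 residual degrees of freedom, Benjamini-Hochberg over 18734 genes, threshold 0.05) was fitted to all 6 libraries, so the groups share 1 estimate of spread, and tested on simulated data. Replicates differed by more than sampling noise.

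Alternatives were RLE size factors, no count filter, DESeq2 1.42.0, limma-voom (limma 3.58.1), a replicate block, a spline correction for GC content and length (5 degrees of freedom, GENCODE 29), a fold threshold of 1.5, and leaving out each library. Values per library were given for HSPA5, HERPUD1, DNAJB9, the 4 sensors and factors, the 2 smallest p-values of each role, the 6 smallest between hairpins, and genes a sentence turned on. Other lists give at most the 2 smallest p-values, plus EIF2AK3, ATF4, DDIT3 and TRIB3. The 36 genes and the lists were chosen with earlier results of these data known. A further marker gene is not reported here.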

Additional observations from a re-analysis of the deposited data

Results flagged for a closer look

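The response to the 2 BCAT1 hairpins differed by the direct edgeR test, hairpin 2 minus hairpin 1 on the log2 scale, for 23 of the 36 genes, where 46.2% of all tested genes differed. Both hairpins lowered BCAT1, to 55.8 and 55.3 CPM with hairpin 1 and 116 and 111 CPM with hairpin 2, against 459 and 475 CPM in control libraries. Among chaperones CANX differed by 1.02, HYOU1 by 0.17 and DNAJB11 by 0.13, higher with hairpin 2, and CALR by −0.34 and HSPA5 by −0.12, lower with hairpin 2. Among disulfide enzymes ERO1B differed by 1.33, DNAJC10 by 0.80, PDIA3 by 0.35, P4HB by 0.16 and ERO1A by −0.54. In ER-associated degradation SEL1L differed by 0.72, DERL2 by 0.52 and HERPUD1 by −0.48. Of the sensors and factors ATF6 differed by 0.34, CREB3L2 by −0.55 and XBP1 by −0.95. Of the translocon and export genes SSR1 differed by 0.46, SEC61A1 by 0.41, SEC61G by 0.23, SEC61B by 0.19, SSR2 by −0.13, SSR3 by −0.15 and SEC24D by −0.41. Whether these differences come from the depth of knockdown or from the hairpin sequence cannot be told apart with 2 hairpins.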

How the results depend on the processing

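With 2 libraries a group the precision is limited by the number of libraries, and for the least counted genes also by depth. The SE over both hairpins was 0.12 for ERO1B and 0.094 for ERN1, against 0.036 for HSPA5. Against a fold of 1.5, 7 of the 36 genes passed over both hairpins, 6 with hairpin 1, 5 with hairpin 2 and 5 between hairpins. Counts leaving out 1 library ran from 25 to 30 over both hairpins, 29 to 30 with hairpin 1, 23 to 27 with hairpin 2 and 16 to 23 between hairpins. Correction for GC content and length turned the sign, over both hairpins, of ERO1A (−0.14), SEL1L (−0.12), DERL1 (−0.13), XBP1 (0.19), ATF6 (−0.30), SEC61A1 (0.092) and SSR1 (0.022), and with hairpin 2 of CANX (−0.26), DNAJC10 (−0.48), EDEM3 (−0.048), ATF6 (−0.18) and SEC24D (−0.068). The cause was not tested. RLE factors and DESeq2 changed no call of the 36 genes in the 4 comparisons. Between hairpins, limma-voom lost 1 call and the fit with no count filter lost 3. For the fits leaving out 1 library, what share of all tested genes passed was not counted. With all libraries it was 50% over both hairpins, 49.1% with hairpin 1, 49.3% with hairpin 2 and 46.2% between hairpins.

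Correlations of replicate differences were −0.033 between hairpins, 0.0044 between hairpin 1 and control and −0.038 between hairpin 2 and control. These values show no replicate shift shared between groups. They cannot tell whether equal replicate numbers mark matched samples, which the labels do not say. With the replicate block 29 genes passed over both hairpins, 30 with hairpin 1, 26 with hairpin 2 and 21 between hairpins. What share of all tested genes passed with the block was not counted. Without the block that share was 50%, 49.1%, 49.3% and 46.2% in the same order. The block together with the GC and length correction gave 32, 32, 31 and 22 genes in that order. Its share of all genes was not counted either. With the correction alone the share was 46.3%, 49.5%, 46.1% and 51.9%. Under block and correction the same 12 signs turned, at values equal to those above to 2 decimals (EDEM3 at −0.047).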
